A study of Mus musculus with 4 samples.

Results

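The contractile genes of smooth muscle were followed across 4 arrays of mouse small intestine, 2 from animals labelled HNF4 null and 2 from controls, to read how much muscle signal each array carried. The 10 genes are Acta2, Actg2, Myh11, Mylk, Tagln, Cnn1, Smtn, Lmod1, Des and Synpo2. Members were all probe sets for which the platform annotation gives exactly 1 of these symbols, which came to 15 probe sets among 22626 that are not controls. All 10 genes had at least 1 probe set. After the dimmest 30% of probe sets were left out, 13 of the 15 were tested, covering 9 genes of the 9546 genes tested. Synpo2 and the dimmer Myh11 probe set fell under that filter and are given as values without a test.

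All animals were 1 month old, and 1 array was made per animal. The null male and the null female are labelled HNF4loxp/-villin cre, that is a floxed allele over a minus allele with the villin-Cre transgene. The control female is labelled HNF4loxp/+villin cre and so carried Cre with a wild-type allele. The control male is labelled HNF4loxp/- without Cre. Each animal is called below by its group and sex. A minus allele, unlike one removed by Cre, is carried in every cell, muscle included, of both null animals and of the control male, whereas villin-Cre acts in the intestinal epithelium. The labels name the tissue only as small intestine, with no segment and no statement on whether the muscle wall was kept. The labels do not say which HNF4 gene was deleted. The 2 controls differ in sex, in Cre and in the second allele at once, and these cannot be told apart.

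Smooth muscle of the gut lies mostly in the 2 layers of the outer wall, with a thin sheet under the mucosa and strands inside the villi. Its cells contract when calcium activates myosin light chain kinase, which switches on a smooth muscle myosin that pulls on actin filaments. Calponin, transgelin and smoothelin sit along those filaments, leiomodin builds them, and desmin and synaptopodin 2 tie them to the cell's scaffold. Most of these genes are driven by serum response factor with its partner myocardin, through the CArG box. In RNA from whole tissue, fewer muscle cells and less muscle RNA per cell cannot be told apart.

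The Acta2 promoter is shown because it was the 1 member promoter with a match to a relaxed form of that element, beside that of Myl9, a smooth muscle myosin light chain gene. Sequences are RefSeq's on GRCm38.p6, read 5′ to 3′ on the gene's strand, with CArG matches in capitals. The search allowed at most 1 G or C in the AT core, within 250 bases before the start. The motif reads alike on both strands.
Acta2: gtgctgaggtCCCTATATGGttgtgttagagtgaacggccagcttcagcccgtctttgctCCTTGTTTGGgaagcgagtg
Myl9: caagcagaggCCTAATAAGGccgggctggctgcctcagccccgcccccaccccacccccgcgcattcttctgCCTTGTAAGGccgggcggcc
The Acta2 stretch lies at chr19:34255388-34255467 on the minus strand, with matches starting 84 and 34 bases before the gene's start. The Myl9 stretch lies at chr2:156775293-156775384 on the plus strand, with matches starting 161 and 99 bases before. The promoter table held 7 of the 10 members, Acta2, Cnn1, Des, Lmod1, Mylk, Smtn and Synpo2, and Acta2 was the 1 with a match. Over all 32851 promoters in the table, 8.59% held a match of this kind and 1.47% one with no G or C in the core, which none of the 7 members had.

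The arrays differed in overall brightness before normalization, with median deposited intensities from 43.2 in the null male to 53.3 in the null female. Values below 0 made up 1.42% to 2.46% of probe sets, most in the null male. The deposited table holds no detection calls. As a guide to dim values, the Y-linked gene Kdm5d gave 13.8 and 18.3 in the 2 females on its brightest probe set. Another Y-linked gene, Eif2s3y, gave 1.12 in the null female and -2.23 in the control female, so background differs between probe sets. The 4 Hnf4a probe sets had mean levels in the null arrays above those of the controls, so they do not check the null labels. Values per array below are deposited intensities, while differences are null minus control on the scale of log2(intensity + 16) after quantile normalization, which understates changes of dim probe sets.

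**Figure D1:**
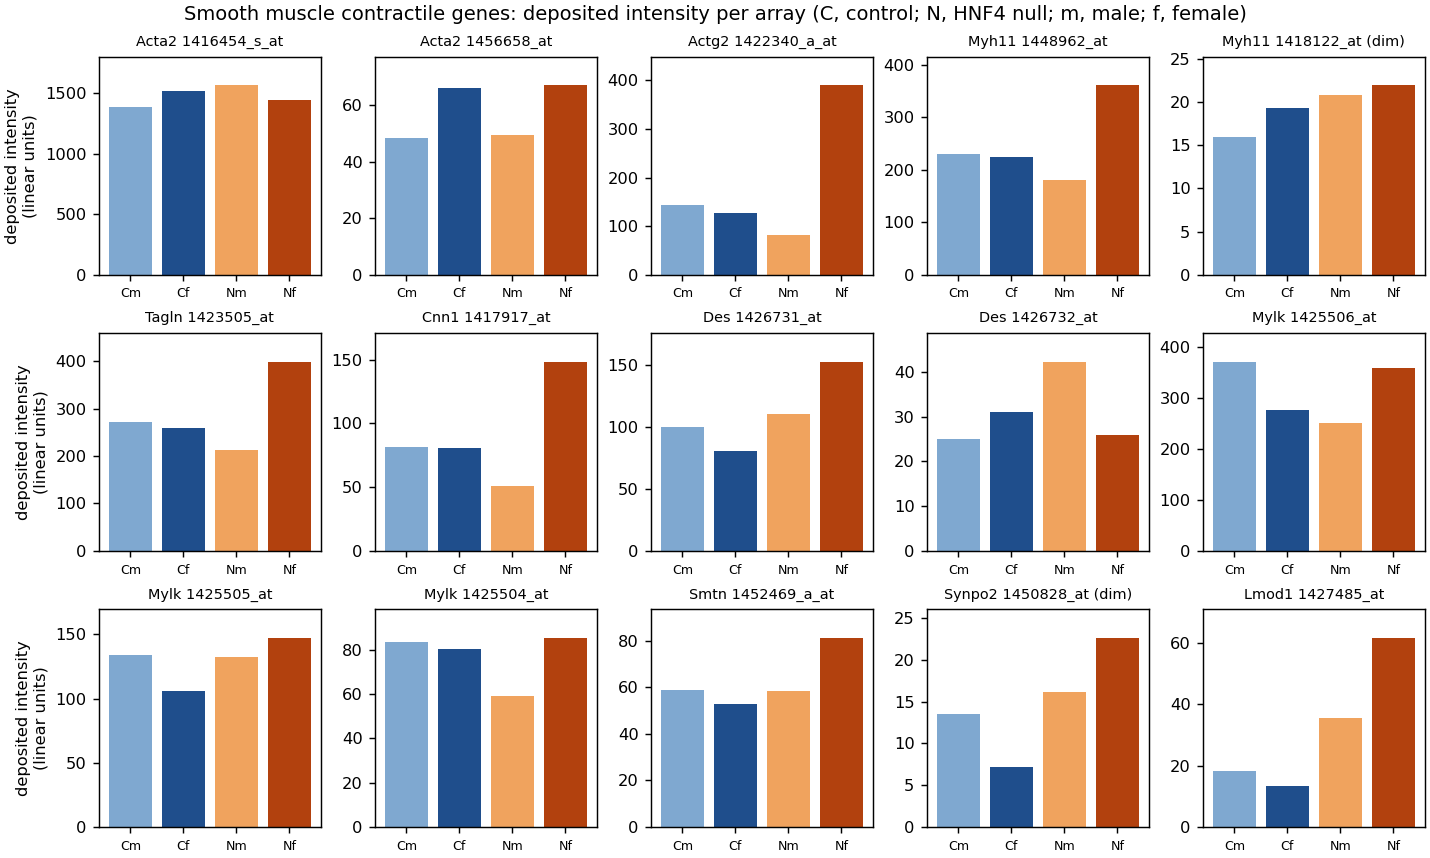
Deposited intensity (linear units, y axis) of each of the 15 member probe sets on the 4 arrays, with C for control, N for HNF4 null, m for male and f for female. The null female stands highest for Actg2, both Myh11 probe sets, Tagln, Cnn1 and Lmod1. It is also highest for the brighter Des probe set, Smtn, Synpo2 and the middle and dimmest Mylk probe sets. Both Acta2 probe sets show no such step.

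Of the 2 smooth muscle actins, Actg2 varied widely over the 4 arrays and Acta2 little. Actg2, the gamma actin of gut smooth muscle, had an intensity of 82.3 in the null male and 389 in the null female, while the control female had 128 and the control male 144. The controls lay close together between the null animals, which held both the lowest and the highest value. After normalization the null female exceeded the null male by 3.69-fold, the widest range of the 9 genes tested. The null mean was 7.69 ± 1.33 and the control mean 7.23 ± 0.13 (SD, n = 2 each, log2 scale), a difference of 0.46. Its 95% interval ran from -0.87 to 1.79. Limma, which fits a linear model per probe set and pools the spread over all of them, gave an adjusted p (Benjamini-Hochberg over all 15838 tested) of 1 for it as for each of the other 12 tested members. The number of arrays limits the precision of every difference.

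Acta2, the alpha actin of vascular and visceral smooth muscle and of myofibroblasts, was even across the animals. Its bright probe set gave 1564 in the null male, 1448 in the null female, 1520.4 in the control female and 1387 in the control male. All 4 values lay within 0.19 of each other on the log2 scale, and the groups overlapped. The difference was 0.07 with a 95% interval from -0.23 to 0.38. The suffix of this probe set marks probes that can match more than 1 related transcript, and what share of its signal comes from other actins was not tested. The other Acta2 probe set gave 49.4 and 66.9 in the null male and null female, and 48.3 and 66.1 in the control male and control female. On that probe set the 2 females were the higher animals in both groups, and the difference was again 0.07.

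Myh11 encodes the smooth muscle myosin heavy chain, the motor of the thick filament and a specific marker of the cell type. Its brighter probe set stood at 180.4 in the null male and 361 in the null female, with 224 and 231 in the female and male controls. As with Actg2, the null animals enclosed the controls. The difference was 0.22 (SE 0.29). After normalization the ratio of the null female to the null male, on intensity + 16, was 1.74, against a gap of 0.08 (log2) between the controls. The dim Myh11 probe set, which was not tested, read 20.8, 21.9, 19.3 and 15.99 in the null male, null female, control female and control male, near the level of Kdm5d in the females.

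Mylk, the kinase that phosphorylates myosin light chain, had 3 probe sets. The brightest gave 251 in the null male and 359 in the null female, next to 276.8 in the control female and 372 in the control male, which was highest. The middle one gave 132 and 148 in the null pair of animals beside 106 and 134 in the female and male controls. The groups overlapped slightly there as deposited but not after normalization. The dimmest gave 59.0 and 85.5 beside 80.2 and 83.4, with the null male lowest. Their differences were -0.04, 0.24 and -0.13, with 95% intervals that all included 0, so probe sets of the same gene differed in sign. Mylk also yields a long form made outside smooth muscle, and which transcripts each probe set reads was not analysed here.

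The thin filament regulators Tagln and Cnn1 followed Actg2 and Myh11. Tagln, the actin-binding protein transgelin, gave 212 in the null male, 399 in the null female, 259.97 in the control female and 272 in the control male. Cnn1, calponin, gave 51.3 in the null male and 148 in the null female, with 81.0 and 81.1 in the female and male controls. For both genes the null female was the highest animal, the null male the lowest, and the controls were nearly equal. Differences were 0.19 (SE 0.27) for Tagln and 0.16 (SE 0.36) for Cnn1. Within the null group, Cnn1 in the null female was 2.1-fold its level in the null male, while the controls differed by 0.02 on the log2 scale. Smtn, smoothelin, gave 58.4 in the null male and 81.3 in the null female, beside 52.7 and 58.9 in the female and male controls. The null male lay below the control male as deposited but above it after normalization, so whether the groups overlap depends on the scaling, and the difference was 0.29 (SE 0.22).

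Lmod1, leiomodin, which nucleates actin filaments in smooth muscle, had the largest difference of the tested members. Its intensity was 35.7 in the null male and 61.8 in the null female, compared with 13.3 in the control female and 18.1 in the control male. Both null animals were above both controls, but the controls were as dim as Kdm5d in the females and are not shown to lie above background. Both controls lay below 26.2, the dimmest mean intensity the filter kept, so Lmod1 was tested only through its null values. The difference was 1.05 with a 95% interval from 0.40 to 1.69, and its adjusted p was also 1. With a pseudocount of 1 in place of 16 the difference was 1.61, and with 64 it was 0.51. Lmod1 was higher by 0.75 between the males and by 1.34 between the females.

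Des encodes desmin, the intermediate filament of muscle cells. Its brighter probe set gave 110.1 in the null male and 153 in the null female, and 80.8 and 100.1 in the female and male controls, with no overlap between the groups. The difference was 0.50 with a 95% interval from -0.04 to 1.05. The dimmer Des probe set gave 42.3 and 25.9 in the null male and null female, and 30.9 and 25.1 in the female and male controls. Here the null male was highest and the null female near the lowest, so the 2 probe sets ordered the animals differently. Synpo2, the actin-bundling protein synaptopodin 2, gave 16.2 and 22.7 in the null male and null female, and 7.17 and 13.5 in the female and male controls. These values were too dim to test.

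No contractile gene passed the test of null against control over the whole table. Of the 13 probe sets tested, 0 had an adjusted p under 0.05 in limma, where 2 of all 15838 (0.0126%) did, and neither of those belongs to a member. At an unadjusted p under 0.05 stood 1 of the 13, that of Lmod1, against 3.03% of all probe sets. Lmod1 passed the brightness filter only through its null values, so its place in this count and the next was favoured by the filter. Both null arrays lay above both controls for 4 of the 13, the brighter Des, the middle Mylk, Smtn and Lmod1, against 13.5% of all probe sets. Both lay below for 0 of the 13, against 16.3%. With sex as a block limma again called 0 of the 13 members and 0.183% of all probe sets, and the smallest adjusted p of a member was 0.592, for Lmod1.

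**Figure D2:**
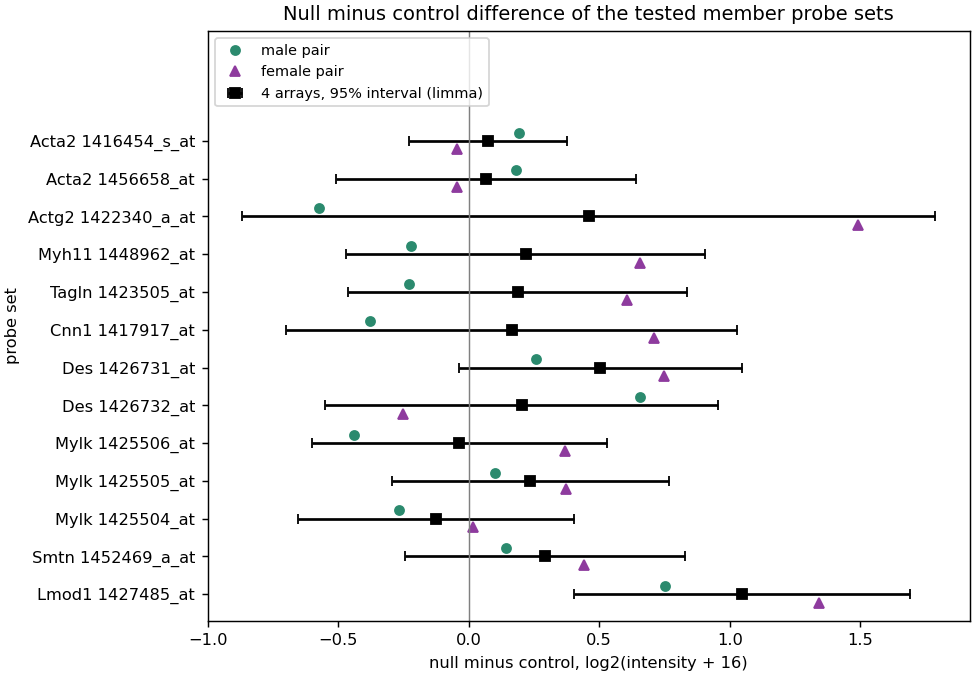
Null minus control difference (x axis, log2 scale) of the 13 tested probe sets: squares with bars are the 4-array estimate and its 95% interval in limma, circles the male pair and triangles the female pair. The interval excludes 0 for Lmod1 only, which passed the brightness filter only through its null values. For 9 of the 13 the circle and the triangle lie on opposite sides of 0.

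The comparison within each sex gave different pictures of the contractile genes. Taking the brightest tested probe set per gene, 8 of 9 members were higher in the null female than in the control female, with a median of 0.66. In the male pair, the null male minus the control male, 4 of 9 were higher and the median was -0.22. Over all genes tested the 2 medians were 0.01 and -0.01, with 50.9% and 48.8% higher. Over all 4 arrays the median of the 9 members was 0.22, with 8 above 0, beside 0.00 over all genes. Without the null female the members' median was -0.18, and without the null male it was 0.58, so the sign rests on the null female. Both of these medians cover 8 genes, since Lmod1 was then too dim to test.

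As a reading of muscle content, the members' median level, centred on each gene, was 0.46 in the null female, -0.20 in the null male, -0.20 in the control female and -0.08 in the control male (log2). The null female was the highest of the 4 arrays for 7 of 9 members, against 27.4% of all genes. The null male was the lowest for 5 of 9, against 32.8%. The null female exceeded the control female by at least 0.5 for 6 of 9 members, against 6.13% of all genes. The controls differed by a median of 0.13, with the control male above the control female for 8 of 9, against 50.7% of all genes. These counts describe 1 animal against 1 animal and have no replicate check. Under median scaling, without normalization, and with pseudocounts of 1 and 64, the female median stayed between 0.53 and 0.69 and the male median between -0.33 and -0.15.

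**Figure D3:**
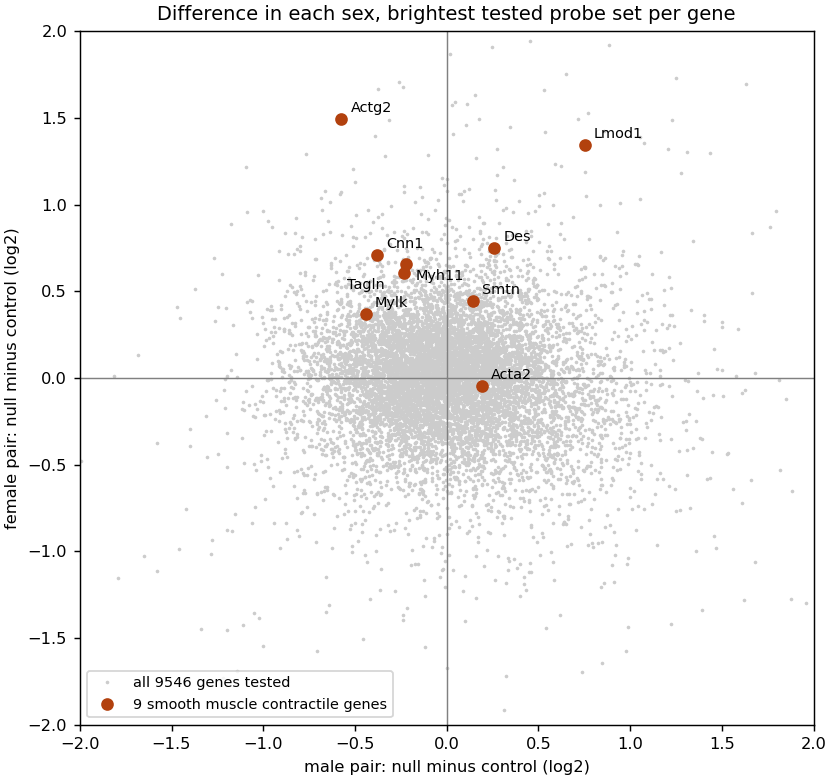
Null minus control difference (log2 scale) in the male pair (x axis) and in the female pair (y axis) for all 9546 genes tested (grey) and the 9 contractile genes (filled, named), with 36 genes outside the axes. Actg2, Cnn1, Myh11, Tagln and Mylk lie above 0 in the female pair and below 0 in the male pair, Lmod1, Des and Smtn above 0 in both, and Acta2 near 0.

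Among other filament, anchoring and scaffold genes of smooth muscle, 24 of 30 on the array were tested and 0 passed in limma. Of these 24, 1 had an unadjusted p under 0.05, that of Ldb3, against 3.03% of all probe sets. Their median difference was 0.09, with 0.11 in the female pair, where 17 of 24 were higher, and -0.13 in the male pair, where 8 were. Tpm2, a smooth muscle tropomyosin, gave 349.9 in the null male and 679 in the null female, and 280.2 and 401 in the female and male controls, a difference of 0.59. Myl9, whose promoter is shown above, gave 403, 845, 351 and 534 in the same order, a difference of 0.47. Both genes were highest in the null female, by 1.28 over the control female. At the other end were Ldb3, a Z-band protein of striated muscle, at -0.60 and Vcl, vinculin of adhesion plaques, at -0.34, both below the controls in both null animals after normalization.

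The transcription regulators of the smooth muscle programme had a centred median of -0.05 in the null female, where the members had 0.46. Of 17 on the array 14 were tested and 0 passed in limma, 0 also at an unadjusted p under 0.05, with a median difference of 0.02 and centred medians from -0.12 to 0.03 over the 4 arrays. Myocd, myocardin, gave 99.4 in the null male, 82.2 in the null female, 98.7 in the control female and 159.8 in the control male, so the null female had the lowest value. It differed by -0.38 and Fhl2, a LIM-domain cofactor, by -0.46, while Barx1 and Foxf1, factors of the gut mesenchyme, differed by 0.41 and 0.27. Srf, named here after its values were seen because it binds the CArG box, gave 41.0 and 62.6 in the null male and female and 47.8 and 67.0 in the control female and male.

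Genes of calcium handling, membrane signalling and relaxation had a median difference of 0.07 over 12 tested of 18 on the array, with 0 passing in limma, 0 also at an unadjusted p under 0.05, and medians of 0.05 between the males and -0.05 between the females. Gucy1a1, a subunit of the nitric oxide receptor, stood at 0.18. The neurokinin receptor gene Tacr2 stood at -0.33 and Atp2a2, the calcium pump of the sarcoplasmic reticulum, at -0.27. The null female was the highest array for 2 of these 12 genes.

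Markers of fibroblasts and endothelium were also high in the null female. All 7 fibroblast markers were tested and 0 passed in limma, 0 also at an unadjusted p under 0.05. All 7 were higher in the null female than in the control female, with a median of 0.56 between the females and -0.38 between the males. Their summed deposited intensity was 852 in the null male and 1788 in the null female, and 1119.8 and 1108 in the female and male controls. The 2 highest differences over 4 arrays were 0.41 for Col1a2 and 0.28 for Lum, and the 2 lowest were -0.18 for Dpt and -0.15 for Pdgfra. Endothelial and mural markers had 0 passing in limma, 0 also at an unadjusted p under 0.05. Endothelial markers, 5 tested of 6, were higher in the female pair for all 5, with a median of 0.46, and summed to 381 and 470.4 in the null male and female and 315 and 345 in the control female and male. The null female was the highest array for 3 of these 5, against 27.4% of all genes. Over 4 arrays the differences of Egfl7 and Kdr were highest at 0.50 and 0.37, while those of Cdh5 at -0.0017 and Emcn at 0.21 were lowest. Egfl7 was brightest in the null male, at 188 against 146 in the null female. Of 6 vascular mural cell markers 5 were tested. They summed to 423 and 585 in the null male and female, and to 426 and 579.5 in the female and male controls. Their median was 0.43 between the females, where 3 of 5 were higher, and -0.06 between the males, where 0 of 5 were. Pdgfrb stood at 0.22, Rgs5 at 0.13, Notch3 at -0.13 and Cspg4 at -0.19.

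The summed level of epithelial markers was below both controls in both null animals and lowest in the null female. All 10 were tested and 0 passed in limma, 3 of them at an unadjusted p under 0.05, against 3.03% of all probe sets. All 10 were lower in the null female than in the control female, with a median of -0.27. In the male pair 3 of 10 were higher and the median was -0.06. After normalization both null arrays lay below both controls for 7 of 10, against 16.3% of all probe sets. They summed to 30176 in the null male, 26992 in the null female, 33929 in the control female and 32116 in the control male. Vil1, villin, differed by -0.38 and the keratin gene Krt20 by -0.36, while Krt18 and Cldn7 differed by 0.01 and -0.02. The part of the fibroblast, endothelial and epithelial levels in the members' differences was not tested.

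Other cells around the muscle were sparsely measured, and 0 of their markers passed in limma. Only 1, Mcpt2, had an unadjusted p under 0.05, against 3.03% of all probe sets. Interstitial cells of Cajal, the pacemakers of gut muscle, had Ano1 at 0.44 and Kit at 0.14. The enteric neuron genes Prph, Nos1 and Uchl1 stood at 0.21, 0.20 and -0.06, and Nos1 gave 239.9 in the null male, 86.8 in the null female, and 125 and 130.1 in the female and male controls. The glial genes Sox10 and Fabp7 stood at -0.08 and -0.12, the mesothelial gene Upk3b at 0.25, and the adipocyte genes Retn and Cidec at 0.37 and -0.18. The 4 tested mast cell genes were Mcpt2 at 1.20, Cpa3 at 0.16, Mcpt4 at 0.09 and Tpsb2 at -0.06.

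Striated muscle markers did not share the members' order. Of 12 on the array 5 were tested, 0 at an unadjusted p under 0.05, and their summed intensity was 1099 in the null male, 861 in the null female, 766 in the control female and 702 in the control male. Tnni2, fast skeletal troponin I, gave 752 in the null male and 391 to 468 in the other animals, a difference of 0.55. Acta1, skeletal alpha actin, differed by 0.52, Mb, myoglobin, by -0.03 and Pvalb, parvalbumin, by 0.02. Both null arrays lay above both controls for 3 of the 5 after normalization, against 13.5% of all probe sets. Tnnc2 and Tnnt3, skeletal genes too dim to test, are named outside the rule given below. Tnnc2 lay between -27.6 and 4.43 on the 4 arrays, near or below 0. Tnnt3 gave 49.6 in the null male and 15.1 to 24.8 in the other animals. The order of the animals differed among the untested markers.

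**Figure D4:**
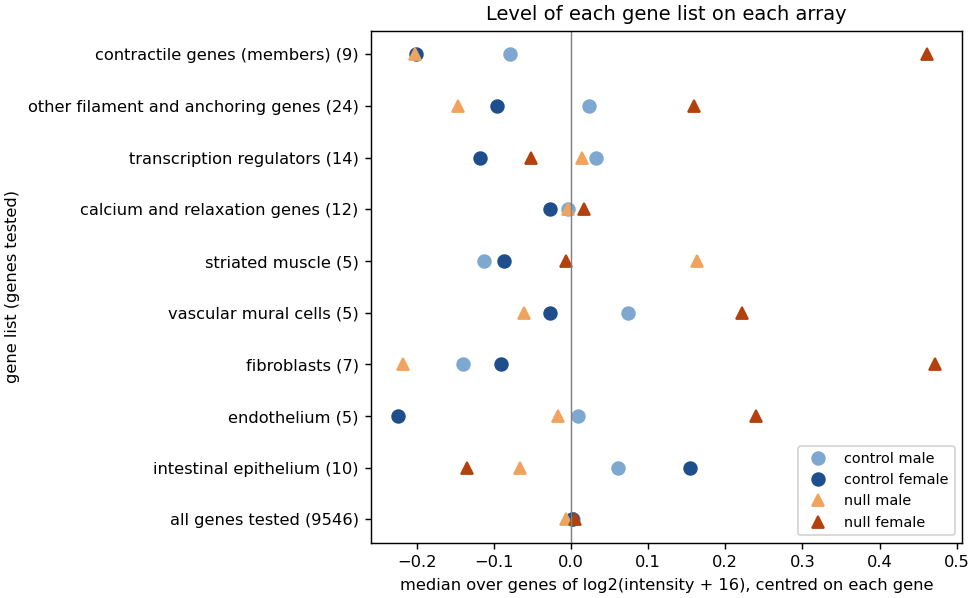
Median over the tested genes of each list of log2(intensity + 16), centred on each gene (x axis), for lists with at least 5 genes tested (number in brackets), with circles for controls and triangles for null animals. The null female is the highest array for contractile genes at 0.46 and fibroblasts at 0.47 and the lowest for epithelium at -0.14. It is also the highest for endothelium at 0.24, vascular mural cells at 0.22 and other filament and anchoring genes at 0.16. For calcium and relaxation genes it is highest at 0.02, and for all genes tested at 0.01.

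The genes whose levels over the 4 arrays came nearest to the members' median pattern were ranked by root mean square difference of centred log2 values among 9537 other genes. The 6 nearest were Pdgfa at 0.02, Fcer1g at 0.02, Scmh1 at 0.03, Tirap at 0.04, Myb at 0.05 and Adam11 at 0.05. A flat gene would lie at 0.27 from that pattern. Pdgfa, a platelet-derived growth factor gene, gave 104.9 in the null male, 204 in the null female, 123 in the control female and 130.3 in the control male. Of the members themselves Tagln at 0.05 and Myh11 at 0.06 were nearest, Cnn1 lay at 0.16, and Actg2 at 0.44 was farthest, with the widest range. With 4 arrays this ranking is a description.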

How the data were processed

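Total RNA from small intestine of 4 mice (Qiagen RNeasy mini, biotin label) was hybridised to Affymetrix arrays, per the labels' protocols. As deposited, each probe set has 1 linear intensity for each array. How the authors summarised, background-corrected and scaled it is not given in the sources used here. Genes were named through the platform annotation. Of 22690 probe sets 64 controls were dropped. The rest were quantile normalized, floored at 0 and log2-transformed with a pseudocount of 16, and the dimmest 30% by mean were left out. Null and control entered limma 3.58.1 under R 4.3.3 (lmFit, eBayes with an intensity trend, 2 residual and 4.65 prior degrees of freedom), two-sided, with Benjamini-Hochberg adjustment over 15838 probe sets. A gene was represented by its brightest tested probe set. The script was tested on simulated data. Samples are 4 separate animals by their labels. Named genes were all members, in each other list the 2 highest and 2 lowest differences, and the 6 nearest patterns. One named gene is not reported here. The members and lists were chosen with earlier results of these data known. Alternatives were other scalings, pseudocounts of 1 and 64, no filter, no trend, sex as a block and leaving out each array.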

Additional observations from a re-analysis of the deposited data

Results flagged for a closer look

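The following results went one way in the male pair and the other way in the female pair, each pair being 1 null and 1 control animal. The difference between the pairs was not tested, since no replicate exists within a sex. The pairs also differ in the genotype of their control, which cannot be told apart from sex. The median over the 9 member genes was -0.22 for the males and 0.66 for the females (log2), and the values below follow that order. Actg2 had the widest gap, with -0.57 and 1.49. Cnn1 gave -0.38 and 0.71, Myh11 -0.22 and 0.66, and Tagln -0.23 and 0.61. The brightest Mylk probe set gave -0.44 and 0.37, and the dimmest -0.27 and 0.0166. In the opposite sense, the dimmer Des probe set gave 0.66 for the males and -0.25 for the females. Acta2 gave 0.19 and -0.0452 on its bright probe set and 0.18 and -0.0463 on the other.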

How the results depend on the processing

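No member probe set passed under an alternative in which it was tested, and 133 of 141 alternative values of single probe sets kept their direction. That count overstates stability, since no filter, no trend and sex as a block cannot change the difference itself. All 8 reversals came from leaving out 1 array. Without the null male neither Lmod1 nor the dimmer Des probe set was bright enough to be tested, nor was Lmod1 without the null female. The number of probe sets called over the whole table was 1 without an intensity trend, 29 with sex as a block, and 0 to 35 with 1 array left out (35 without the null male, 10 without the null female, 0 without the control male), where the arm's lone animal is assumed to vary like the others. The members' median difference ranged from -0.18 to 0.58 with 1 array left out. Without the null female it was -0.18, with 3 of 8 genes above 0. The same leave-out gave the lowest values of Actg2 (-0.48 to 1.39), Myh11 (-0.18 to 0.61), Tagln (-0.18 to 0.55) and Cnn1 (-0.37 to 0.70). Leaving out an array also turned the sign of the dimmer Acta2 (-0.10 to 0.23), the dimmer Des (-0.16 to 0.57) and the brightest Mylk probe set (-0.25 to 0.18). Lmod1 was 0.93 and 1.16 without the control female and the control male, 1.61 with a pseudocount of 1 and 0.51 with 64. The groups share no replicate number, and sex as a block, which compares null and control within each sex, called 0 members. Sex and the genotype of the control go together, so the block does not separate them. The dimmest members, Synpo2, Lmod1 and the second Myh11 and Des probe sets, are limited by signal over background.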
